A study of Homo sapiens with 12 samples.

Results

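The effect of adding XL413 to OF1 in melanoma cells was measured by comparing 3 libraries of cells given both inhibitors (called the combination) with 3 libraries of cells given OF1 alone, 6 of the 12 libraries in the series. All came from A375, an established human melanoma line, treated for 24 h with 1 µM of each inhibitor. Both groups carried OF1 at the same dose, and only the combination carried XL413. The other 6 libraries, from cells with the vehicle DMSO or with XL413 alone, were used to set the same contrast beside it without OF1. They also entered the same fit, so all 12 libraries share 1 estimate of the spread behind the SEs and p-values. Only 1 line, 1 dose and 1 time were tested. The submitters describe 3 biological replicates a group, but no label ties them to separate cultures, so the p-values speak only of the spread among the libraries at hand.

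XL413 inhibits CDC7. Together with DBF4 this kinase phosphorylates MCM helicase subunits so that licensed origins can fire in S phase. OF1 binds the bromodomains of BRPF1, BRD1 (BRPF2) and BRPF3, scaffolds of histone acetyltransferase complexes. Histone genes and many replication genes are transcribed around S phase, and the transcripts of the mitotic machinery build up from late S phase to mitosis.

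Each library held 30499559 to 36062138 expected counts, and 15353 genes were tested. Levels are in CPM, counts scaled to a common library size by TMM, and a log2 change is given with its SE from edgeR's quasi-likelihood test, n = 3 libraries a group. The A375 label was checked against 13 melanoma markers: SOX10, the neural crest factor, lay between 318 and 386 CPM in these 6 libraries and PRAME between 158 and 170 CPM, while TYR, the tyrosinase gene, was at 0 in all 12 libraries and MLANA reached at most 0.2402 CPM. Skeletal muscle transcripts were present beside them and differed between the groups. The muscle fibre score of a library is the mean log2 CPM of 35 sarcomere and other fibre genes. It was 1.27, 2.28 and 2.43 in OF1 replicates 1, 2 and 3 and 0.72, -0.70 and -0.15 in the combination. DMSO (0.61, 1.19 and 2.13) and XL413 alone (2.43, 1.93 and 1.11) overlapped the OF1 range. Combination replicates 2 and 3 were also distant from the rest in a principal component analysis, with scores of -33.4 and -31.5 on the leading axis (24.1% of variance), where replicate 1 had -7 and OF1 had 4 to 15.1. Results are therefore also given with both muscle scores (fibre and progenitor) as covariates and with combination replicate 1 alone.

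Many genes differed between the combination and OF1, mostly by small amounts. Of 15353 genes 845 passed an adjusted p of 0.05 (5.5%), 429 higher (2.79%) and 416 lower (2.71%) in the combination than in OF1. The risen genes had a median log2 change of 0.20 and the fallen genes -0.33. Only 5 rose more than 2-fold, whereas 96 fell more than 2-fold, 38 of them members of the muscle, fibroblast, smooth muscle or collagen lists described at the end. In 22.5% of all tested genes the 3 and 3 libraries did not overlap (11.2% higher and 11.3% lower), and the same held for 839 of the 845. With both muscle scores as covariates 11 genes passed (0.0716%), 9 risen and 2 fallen, with 1092 at an unadjusted p under 0.05. With combination replicate 1 alone 53 passed (0.335%), of which 49 were also among the 845. All 429 risen genes kept a higher value and 391 of 416 fallen genes a lower value in the covariate fit. Their sizes shrank: the median went from 0.20 to 0.17 for the risen genes, from -0.33 to -0.20 for the fallen genes and from -1.84 to -0.40 for those that had fallen more than 2-fold, while the median SE over tested genes went from 0.069 to 0.108. The number of calls followed single libraries. It was 384, 291 and 382 without OF1 replicate 1, 2 or 3. Without combination replicate 1, 2 or 3 it was 2227, 212 and 370. The DMSO and XL413 libraries enter only through the shared spread, scaling and filter. Without 1 of those libraries 528 (without DMSO replicate 2) to 747 genes passed.

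The 11 genes that passed with the muscle scores in the model were CDK1, HMMR, UBE2C, AURKA, TOP2A, ARL6IP1, CDCA7, HIST1H2AC and HIST1H2BK, which rose, and FST and NEAT1, which fell. No single library of either group ended any of these calls when left out. None of the inhibitors' own targets passed the test. CDC7 was at 24.5, 24.5 and 23.4 CPM in OF1 and 23.6, 23.6 and 23.4 CPM in the combination, with a log2 change of -0.04 ± 0.05 (adjusted p = 0.685). Its activator DBF4 went from 53.4, 52.2 and 51.5 to 55.97, 53.4 and 52.9 CPM (log2 change 0.05 ± 0.04, adjusted p = 0.547). The libraries of both genes overlapped between the groups. BRPF1 was at 49.6, 46.9 and 47.6 CPM against 45.6, 43.1 and 46 CPM (log2 change -0.10 ± 0.04, adjusted p = 0.175). The log2 change was 0.02 ± 0.06 for BRD1 and 0.01 ± 0.04 for BRPF3, and neither passed. These are transcript levels, and kinase or bromodomain activity was not measured. Across the 14 BRPF scaffolds and partner acetyltransferases edgeR passed 0 genes, with 3 lower at an unadjusted p under 0.05 and 0 passed by DESeq2 or limma-voom.

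Transcripts of the mitotic machinery rose together. Of 38 G2/M mitotic genes 23 rose, 1 fell and 14 did not pass, and their median log2 change was 0.17, against -0.001 over all tested genes. Over all tested genes 2.79% rose and 2.71% fell, the shares to read beside the counts of every list. CDK1 (chromosome 10, 60778331 to 60794852; positions are RefSeq's on GRCh38.p14), the mitotic entry kinase, was at 109.8, 111 and 107 CPM in OF1 replicates 1, 2 and 3 and at 154, 149 and 152 CPM in the combination. The groups were far apart relative to the spread within each. CDK1 rose 1.39-fold, and its log2 change was 0.47 ± 0.03 (adjusted p = 7.84e-06). HMMR (chromosome 5, 163460632 to 163491941), a spindle and hyaluronan binding protein, went from 78.5, 72.3 and 67.2 to 115, 115 and 109 CPM, a 1.56-fold rise. UBE2C, the ubiquitin-conjugating enzyme that works with the anaphase-promoting complex, rose 1.54-fold from 136, 140.3 and 144 to 202, 215 and 229 CPM. TOP2A (chromosome 17, 40388525 to 40417896), the topoisomerase that untangles sister chromatids, rose 1.33-fold from 578, 547 and 524 to 776, 728 and 692 CPM. In TOP2A the lowest combination library lay above the highest OF1 library by more than the range within OF1. The spindle kinase AURKA moved less but very evenly, from 195, 196 and 196 to 241, 245 and 248 CPM (log2 change 0.32 ± 0.03, adjusted p = 1.39e-05).

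Other members that rose included the cyclins CCNB2 (log2 change 0.40) and CCNB1 (0.21), the securin PTTG1 (0.35), the chromosomal passenger protein BIRC5 (0.32), the anaphase activator CDC20 (0.30) and the kinesin KIF2C (0.25). MKI67 (chromosome 10, 128096659 to 128126423), the gene of the Ki-67 proliferation antigen, was the member that fell. It was at 563, 516 and 506 CPM in OF1 and 441, 424 and 397 CPM in the combination, 1.25-fold lower with no overlap (log2 change -0.33 ± 0.05, adjusted p = 0.00177). It did not pass in the covariate fit or with combination replicate 1 alone. The kinetochore motor CENPE had a log2 change of -0.22 and the kinetochore protein CENPF of -0.04, and neither passed. Leaving out 1 library at a time left 15 to 26 risen members, the fewest without combination replicate 2 (15, more than 1.5 times below 23). With the muscle scores as covariates 5 rose and the list's median was 0.15. With combination replicate 1 alone 12 rose and the median was 0.15. ARL6IP1, an endoplasmic reticulum membrane protein outside the list, rose 1.24-fold from 314, 309 and 308 to 384, 392 and 379 CPM. CDCA7, a cell division cycle associated protein linked to DNA methylation, rose 1.35-fold from 33.9, 33.4 and 32.8 to 45.2, 45.7 and 43.8 CPM. The plot of expression per library shows these genes in all 4 groups.

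**Figure D1:**
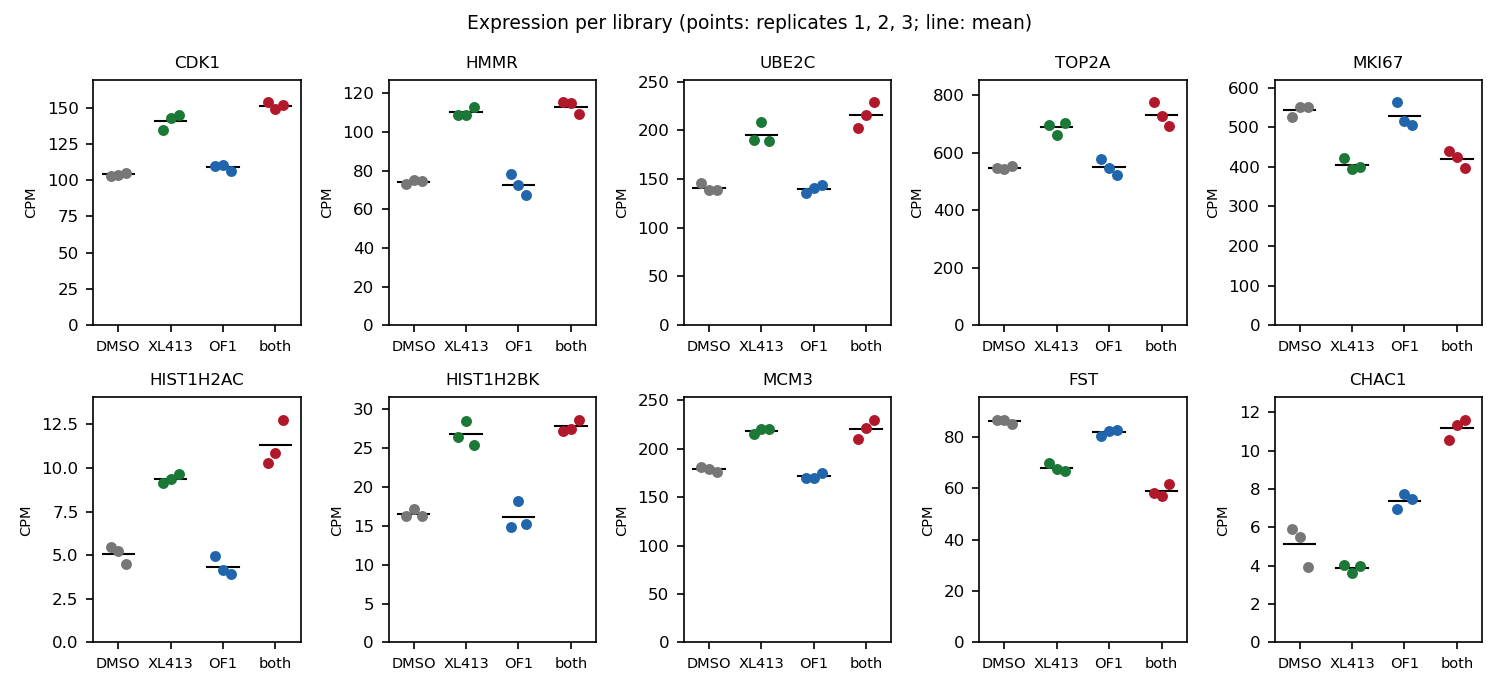
CPM of 10 genes in each library (y axis) by treatment (x axis; "both" is the combination); points are replicates 1, 2 and 3 and the line is their mean. In CDK1, HMMR, UBE2C, TOP2A, the 2 histone genes, MCM3 and CHAC1 all 3 combination libraries lie above all 3 OF1 libraries, and in MKI67 and FST below them.

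Many mitotic genes carry in their promoters the cell cycle homology region (CHR, TTTGAA), which the DREAM and MYB-MuvB complexes read, beside CCAAT boxes bound by NF-Y. RefSeq promoter windows (250 bases before to 50 after each start, GRCh38.p14) were searched on both strands. TTTGAA was present in 22 of 32 G2/M genes with a window (68.8%), against 14.1% of tested genes with a window and 18.2% of all 27305 genes. It was in 13 of 19 G2/M genes that rose (68.4%) and in 9 of 13 that did not (69.2%), and the fallen MKI67 has it as well. A CCAAT box was present in 81.2% of the G2/M windows, against 39.7% of all. These windows are shown because they hold the same motif in a gene that rose and in the one that fell. Each gives the 200 bases before the start, 5′ to 3′ on the gene's strand, with TTTGAA or its reverse complement in capitals. CDC20, chosen for its window after its values were seen, lies at chr1:43358781-43358980 on the plus strand and MKI67 at chr10:128126424-128126623 on the minus strand.
CDC20: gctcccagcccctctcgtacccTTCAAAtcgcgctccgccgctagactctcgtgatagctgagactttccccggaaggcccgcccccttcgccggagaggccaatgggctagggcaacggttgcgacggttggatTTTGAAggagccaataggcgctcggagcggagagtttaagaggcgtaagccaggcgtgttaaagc
MKI67: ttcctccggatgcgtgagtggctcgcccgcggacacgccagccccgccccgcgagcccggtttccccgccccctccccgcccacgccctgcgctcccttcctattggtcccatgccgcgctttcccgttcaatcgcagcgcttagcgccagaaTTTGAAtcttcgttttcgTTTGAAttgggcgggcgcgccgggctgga
Both windows hold 2 matches, and CDC20 rose 1.23-fold (from 340.5, 356 and 349 to 404, 427 and 458 CPM) where MKI67 fell.

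Histone genes had the highest median change of the lists tested. Of 15 replication-dependent histone genes 4 rose, 0 fell in edgeR, DESeq2 or limma-voom (0 also at an unadjusted p under 0.05), and 14 of the 15 had a higher value in the combination, with a median log2 change of 0.43. HIST1H2AC (chromosome 6, 26124172 to 26124690), a histone H2A gene now called H2AC6, was at 4.95, 4.17 and 3.90 CPM in OF1 and 10.3, 10.8 and 12.8 CPM in the combination, 2.60-fold higher (log2 change 1.38 ± 0.11, adjusted p = 7.84e-06). HIST1H2BK (chromosome 6, 27138293 to 27146858), a histone H2B gene, went from 14.9, 18.3 and 15.3 to 27.2, 27.5 and 28.7 CPM, 1.73-fold higher. The lowest combination library of each gene lay well above the highest OF1 library. HIST3H2A rose 1.68-fold from 9.01, 9.11 and 8.59 to 14.3, 14.3 and 16.3 CPM, and HIST1H2BD 1.79-fold from 2.76, 2.67 and 1.92 to 4.81, 3.98 and 4.36 CPM. In each fit without 1 of the 6 libraries 4 of the 15 rose. HIST1H1C, a linker histone, had a log2 change of 0.03 and HIST2H2BE of 0.10, and neither passed. HIST2H4A and HIST2H4B, outside the list, both rose 1.56-fold with equal values in every library. They are near-identical copies, so how the authors' counting split their reads is uncertain, and both lost their calls without OF1 replicate 1 or 3 or combination replicate 3. With the muscle scores as covariates the list's median was 0.59, and with combination replicate 1 alone 0.49. Most replication-dependent histone transcripts end in a stem-loop and have no poly(A) tail, and these libraries were selected for poly(A), so the counts cover only the polyadenylated share.

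Some histone promoters carry an octamer (ATTTGCAT), bound by OCT1 when such genes are switched on in S phase. It was found in 7 of 13 histone windows (53.8%), against 2.19% of all, and a CCAAT box in all 13, against 39.7% of all genes. The octamer was in 2 of 4 histone genes that rose and in 5 of 9 that did not, and HIST1H2BD and HIST3H2A, which rose, lack it in this window. The windows of the 2 histone genes that also passed with the muscle scores as covariates are shown for where the octamer lies, in capitals on either strand. HIST1H2AC is at chr6:26123972-26124171 on the plus strand and HIST1H2BK at chr6:27146856-27147055 on the minus strand, as the 200 bases before the start.
HIST1H2AC: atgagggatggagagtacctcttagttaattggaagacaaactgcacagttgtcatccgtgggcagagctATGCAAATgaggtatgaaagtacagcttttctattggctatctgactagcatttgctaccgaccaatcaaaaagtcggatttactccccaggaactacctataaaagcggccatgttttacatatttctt
HIST1H2BK: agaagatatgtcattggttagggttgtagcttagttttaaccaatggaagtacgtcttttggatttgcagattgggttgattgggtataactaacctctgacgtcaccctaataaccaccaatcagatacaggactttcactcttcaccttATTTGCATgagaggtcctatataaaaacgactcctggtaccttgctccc
The octamer begins 130 bases before the start in HIST1H2AC, on the opposite strand, and 49 bases before it in HIST1H2BK, on the gene's strand. HIST1H2BK has 2 promoter windows in the table and the one holding the octamer is printed. A match describes these letters and not a bound site.

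Some genes that build and fire origins rose. Of 37 origin licensing, firing and replisome genes 8 rose and 0 fell (0 also at an unadjusted p under 0.05 and in DESeq2 and limma-voom), with a median log2 change of 0.11. MCM3, a subunit of the helicase that CDC7 phosphorylates, went from 169.7, 169.5 and 175 to 210.3, 221 and 230.0 CPM, 1.29-fold higher with no overlap (log2 change 0.36 ± 0.03, adjusted p = 4.81e-05). MCM2, the subunit best known as a CDC7 substrate, rose 1.13-fold from 309, 309 and 317 to 342, 357 and 358 CPM. MCM7 rose 1.16-fold and the fork protection protein TIMELESS 1.15-fold. The other helicase subunit MCM6 had a log2 change of 0.03, the loader CDC6 of 0.03 and the checkpoint mediator CLSPN of -0.03, and none of these passed. Calls numbered 5 to 11 when 1 library was left out, with 5 without OF1 replicate 3. In the covariate fit the list's median was 0.09, and with combination replicate 1 alone, in which MCM3 passed, it was 0.085. An E2F site (TTTCGCGC or TTTGGCGC) was present in 11 of 33 windows of this list (33.3%), against 2.43% of tested genes with a window and 1.4% of all.

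Among the checkpoint and recombination genes 4 of 24 rose, with a median of 0.06. The counts in this paragraph stand beside 2.79% risen and 2.71% fallen over all tested genes. CHEK1, the kinase of the replication checkpoint, rose 1.12-fold and CHEK2 1.27-fold. RAD54L, a DNA translocase of homologous recombination, rose too (log2 change 0.15) and lost its call without any 1 of the 6 libraries. Of 14 deoxynucleotide synthesis genes 2 rose, 1 without OF1 replicate 2 or 3 or combination replicate 2, and 4 without combination replicate 1. TK1, thymidine kinase, went from 163, 178 and 176 to 196, 210.4 and 221 CPM, 1.22-fold higher. G1/S genes went both ways, with 3 of 23 higher and 3 lower and a median of 0.00. Without 1 library 1 to 3 rose (1 without OF1 replicate 1 or 3 or combination replicate 2) and 1 to 6 fell (1 without OF1 replicate 2, 6 without combination replicate 1). RBL1, the pocket protein p107, rose 1.19-fold from 52.9, 51.7 and 49.6 to 62.5, 63.1 and 58.4 CPM. The F-box protein SKP2 fell 1.15-fold and lost its call without OF1 replicate 1 or 2. Of 28 p53 targets 2 rose and 2 fell. Of these 1 rose without any 1 library except combination replicate 1 (3), and 1 fell without OF1 replicate 3 or combination replicate 2. ZMAT3, an RNA binding protein, went from 18.6, 17.9 and 18.7 to 15.3, 14.7 and 13.1 CPM (1.28-fold lower), while DDB2, a nucleotide excision repair factor, rose 1.17-fold.

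FST and NEAT1 were the fallen genes that also passed with the muscle scores in the model. FST (chromosome 5, 53480629 to 53487134) encodes follistatin, a secreted antagonist of activins and myostatin. It was at 80.6, 82.5 and 82.6 CPM in OF1 and 58.2, 56.96 and 61.7 CPM in the combination, 1.39-fold lower with a wide gap between the groups (log2 change -0.47 ± 0.04, adjusted p = 7.84e-06). NEAT1 (chromosome 11, 65422798 to 65445540), the long noncoding RNA that scaffolds paraspeckles, went from 219, 218 and 214 to 179.9, 180.0 and 178 CPM, 1.21-fold lower (adjusted p = 0.000107). Its log2 change of -0.28 became -0.11 (adjusted p = 0.142) when smooth offsets for transcript length and GC content of each library were added, so that call rests on leaving these out. Changes did move with transcript length. When the 14413 genes with an annotated transcript were split by length into 5 groups of about equal size, the median log2 change was 0.06 in the shortest and -0.04 in the longest, and 0.05 and -0.04 for XL413 against DMSO. With the offsets 1678 genes passed, 1013 risen and 665 fallen.

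Targets of ATF4, the transcription factor of the integrated stress response, were mixed. Of 27 tested, 6 rose, 1 fell and 20 did not pass, with a median log2 change of 0.06. Over all tested genes 2.79% rose and 2.71% fell. CHAC1 (chromosome 15, 40953471 to 40956512), which degrades glutathione, went from 6.96, 7.75 and 7.47 to 10.6, 11.3 and 11.6 CPM, 1.51-fold higher with no overlap (adjusted p = 0.0101). In cells without OF1 it was at 5.94, 5.49 and 3.92 CPM in DMSO and 4.03, 3.64 and 3.98 CPM with XL413, a log2 change of -0.40 that did not pass. The difference between these log2 changes was 0.99 (unadjusted p = 3.96e-05, adjusted p = 0.0869). CBS, which makes cystathionine from homocysteine, rose 1.2-fold, and lost its call without combination replicate 2. NUPR1, a stress-induced chromatin protein, rose 1.28-fold and lost it without OF1 replicate 1 or 2 or combination replicate 3. SLC7A5, a transporter of large neutral amino acids, was the member that fell, from 1234, 1165 and 1231 to 1067, 1106 and 1084 CPM. Its call was lost without OF1 replicate 1 or 3 or combination replicate 2. Without OF1 5 members fell in edgeR, against 1.54% of all tested genes, with a median of -0.12. Of the 27, 20 had opposite signs in the 2 settings, where 63% of all tested genes had the same sign. No member passed the test of the difference in edgeR. Risen members numbered 2 to 8 and fallen members 0 to 2 when 1 library was left out, with 2 risen without combination replicate 2 and 3 without OF1 replicate 1 or 2 or combination replicate 3.

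NF-kB targets and secreted factors rose in 4 of 26 cases, with a median log2 change of 0.05, against 9 of 26 and 0.22 for XL413 without OF1. The 4 were among the 9. Over all tested genes 2.79% rose with OF1 and 1.26% without it. CCL2, a monocyte attractant, went from 8.80, 8.82 and 8.46 to 11.7, 11.2 and 13.03 CPM, 1.38-fold higher. ICAM1, an adhesion molecule for leukocytes, rose 1.21-fold from 57.8, 61.2 and 58.5 to 69.4, 70.97 and 73.95 CPM. CXCL1, a neutrophil attractant, rose 1.16-fold. NFKB2, a subunit of the factor itself, rose 1.1-fold, a call lost without any of the 6 libraries except combination replicate 1. CXCL8 (interleukin 8), which rose without OF1 and is named after its values were seen, had log2 changes of 0.05 with OF1 and 0.40 without it, a difference of -0.35 (unadjusted p = 5.96e-05, adjusted p = 0.0896). Of 30 interferon-stimulated genes 3 rose: the immunoproteasome subunits PSMB9 (1.23-fold) and PSMB8 (1.14-fold) and the factor IRF1 (1.22-fold). All 3 calls were lost without OF1 replicate 2 or combination replicate 3. Without OF1 replicate 1 or combination replicate 2 1 rose. The list's median was 0.20, and 0.35 with combination replicate 1 alone. IFIT2, an RNA binding antiviral protein named after its values were seen, was at 5.63, 4.52 and 4.11 CPM in OF1 and 10.99, 6.11 and 4.30 CPM in the combination. Combination replicate 1 was the highest of the 6, replicate 3 lay within the OF1 range, and IFIT2 did not pass.

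The lipid synthesis genes that passed were lower. SREBF1, the factor that switches on fatty acid synthesis, went from 81.8, 80.1 and 81.5 to 63.5, 69.6 and 69.5 CPM, 1.2-fold lower, and kept its call in every fit without 1 of the 6 libraries and with combination replicate 1 alone. INSIG1, which retains the sterol sensor in the endoplasmic reticulum, went from 13.99, 15 and 14.7 to 11.1, 10.2 and 11.7 CPM, 1.32-fold lower. The desaturase SCD fell 1.1-fold and lost its call without any of these libraries except combination replicate 1. In all 2 of 12 fatty acid genes and 2 of 22 cholesterol genes fell, with medians of -0.05 and 0.00. Over all tested genes 2.71% fell. The named genes of melanoma state and signalling changed 1.09-fold to 1.26-fold. AXL, a receptor kinase of the invasive state, was at 467, 438 and 429.5 CPM in OF1 and 387, 405 and 369 CPM in the combination, 1.15-fold lower, a call lost without OF1 replicate 1 or 2. It was the only call among 18 genes of the invasive state. Of 19 genes downstream of the MAPK pathway 2 rose and 2 fell, against 2.79% and 2.71% of all tested genes. DESeq2 passed 2 risen and 5 fallen members, and limma-voom 2 and 4. IER3 rose 1.16-fold (lost without OF1 replicate 1 or combination replicate 3), DUSP6, a phosphatase of ERK, 1.09-fold, and EGR1 and PHLDA1 fell 1.26-fold and 1.13-fold. The calls of DUSP6, EGR1 and PHLDA1 were lost without any of the 6 libraries except combination replicate 1.

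Most ribosomal protein genes were slightly higher, and the number that passed varied with the libraries used. Of 55, 54 had a higher value in the combination, with a median log2 change of 0.17. Over all 15353 tested genes 7616 had a higher value. In edgeR 5 of the 55 rose, against 2.79% of all tested genes, with 18 in DESeq2 and 5 in limma-voom. RPL12 went from 1180.0, 1334 and 1341 to 1406, 1476 and 1666 CPM, and RPL9 from 701, 786 and 808 to 859.6, 883 and 1012 CPM. In both the ranges did not overlap, but the gap was smaller than the range within a group. The count followed combination replicate 1: without it 49 passed, and without OF1 replicate 1 or 2 or combination replicate 2 or 3 edgeR passed 0 (49 of 55 at an unadjusted p under 0.05 with all libraries). With combination replicate 1 alone the median was 0.05, in the covariate fit 0.08, and with length and GC offsets 33 passed. Nuclear genes of oxidative phosphorylation were alike in this, with 2 of 30 passed (16 without combination replicate 1, 0 in edgeR without OF1 replicate 1 or combination replicate 2 or 3) and a median of 0.13, and 0.04 with replicate 1 alone. Upper-quartile scaling put 57% of called genes on the risen side, against 50.8% with TMM. In the heat shock list edgeR passed 0 of 18 (3 higher and 3 lower at an unadjusted p under 0.05, 1 in DESeq2 and 1 in limma-voom), and in the MYC and ribosome biogenesis list 0 of 25 (2 higher and 6 lower at an unadjusted p under 0.05, 0 in DESeq2 or limma-voom).

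**Figure D2:**
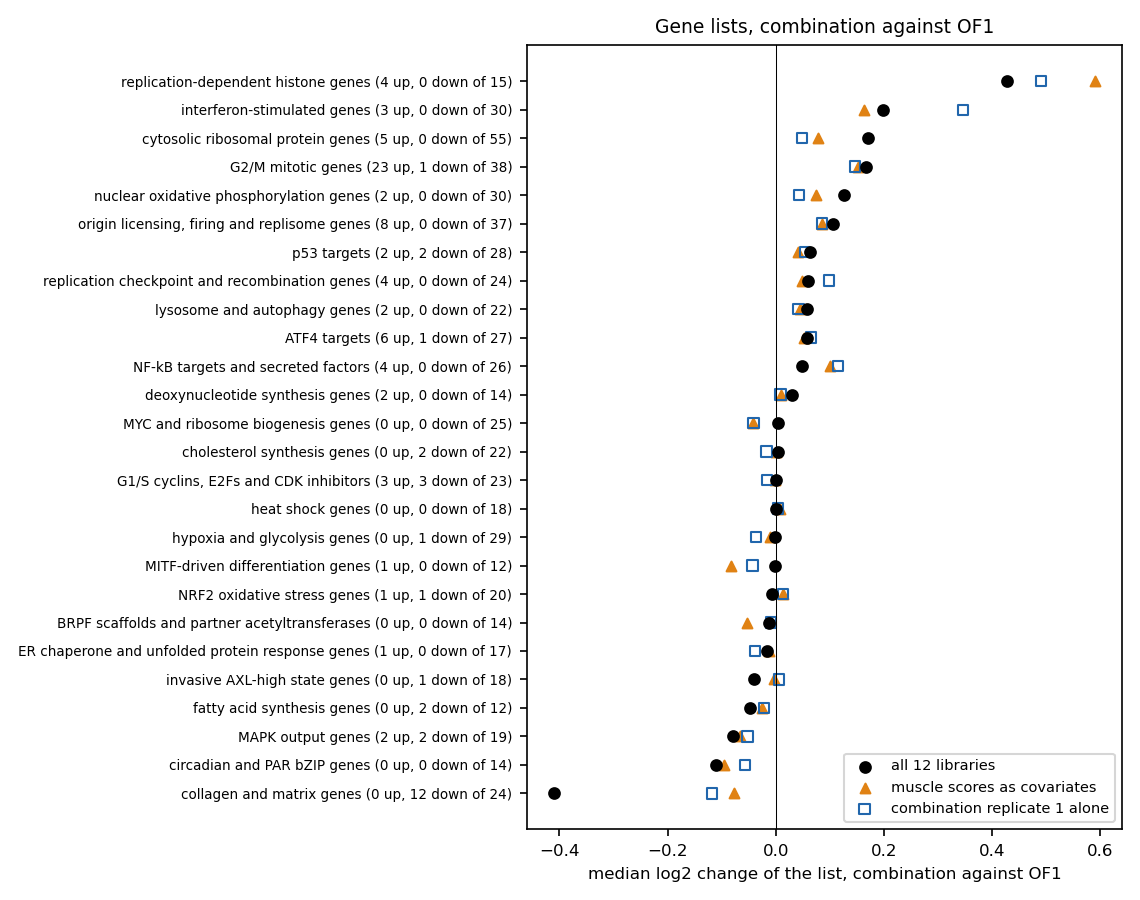
Median log2 change in the combination against OF1 (x axis) for 26 gene lists (y axis, with the members that passed in each direction), with all 12 libraries, with both muscle scores as covariates and with combination replicate 1 alone. Histone genes lie highest in the fit with all libraries (0.43), the G2/M list changes little between the fits, and the collagen list moves from -0.41 to -0.08 with the covariates.

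The largest falls were in genes of muscle and connective tissue. Of 35 muscle fibre markers 26 fell and 0 rose in edgeR, DESeq2 or limma-voom (0 also at an unadjusted p under 0.05), with a median log2 change of -2.10. MYH3 (chromosome 17, 10628532 to 10678417), an embryonic myosin heavy chain, was at 19.5, 46.3 and 49.02 CPM in OF1 and 11.5, 4.54 and 6.73 CPM in the combination, 5.08-fold lower. In DMSO it was at 10.1, 18.01 and 42.1 CPM and with XL413 alone at 45.3, 31.4 and 14.1 CPM, so the spread within each of the other groups was wide. The slow myosin MYH7 went from 7.47, 14.3 and 14.4 to 3.85, 0.757 and 1.56 CPM and TTN, which encodes the giant sarcomere protein titin, from 7.71, 15.5 and 13.5 to 4.16, 1.63 and 2.62 CPM, both losing their calls without combination replicate 2. The log2 change of TTN went from -2.13 to -0.99 with length and GC offsets. MYBPH, ACTA1, TNNI1, MYH8, MYLPF, TNNT3, CASQ2, MYL4 and TNNC1, all of the contractile apparatus or its calcium store, had log2 changes of -2.97 to -2.25. Those 9 and MYH3 lost their calls without combination replicate 2. Without that library edgeR passed 0 of the 35, without combination replicate 3 it passed 7, without OF1 replicate 2 or 3 it passed 3 and 4, and without combination replicate 1 or OF1 replicate 1 it passed 28 each. With the muscle scores as covariates, which these genes themselves define, the median was -0.03. Summed over 40 markers, none of them at 0 in all libraries and 7 under 1 CPM throughout, the level was 181 to 408 CPM in OF1, 47.9 to 142 in the combination, 127 to 329 in DMSO and 185 to 395 with XL413 alone. In bulk RNA fewer cells of a type and less RNA per cell cannot be told apart.

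Collagens were lower too. Of 24 collagen and matrix genes 12 fell and 0 rose in edgeR, DESeq2 or limma-voom (0 also at an unadjusted p under 0.05), with a median log2 change of -0.41. COL1A1 (chromosome 17, 50184101 to 50201631), a chain of type I collagen, was at 108, 101 and 117 CPM in OF1 and 52.7, 19.4 and 28.4 CPM in the combination, 3.27-fold lower (log2 change -1.71 ± 0.23, adjusted p = 0.00103). Even the highest combination library, replicate 1, was well below the lowest OF1 library, and with it alone COL1A1 still passed (log2 change -1.05). COL1A2 went from 99.9, 96.8 and 106 to 58.1, 16.8 and 25.9 CPM and COL3A1 from 38.1, 33.2 and 34.7 to 21.99, 7.15 and 9.72 CPM, and both passed with replicate 1 alone too (log2 change -0.79 and -0.69). Fibronectin (FN1) had a log2 change of -0.90, and -0.26 with replicate 1 alone. COL4A1, COL4A2, COL5A2, COL12A1, SPARC and THBS1 had log2 changes of -0.07 to 0.05 and did not pass. Matrix genes that fell numbered 3 to 16 when 1 library was left out (3 without combination replicate 2, 5 without combination replicate 3, 4, 8 and 5 without OF1 replicate 1, 2 and 3, and 16 without combination replicate 1), and the median was -0.08 in the covariate fit. COL1A1 had a log2 change of -0.95 there and did not pass. Of 11 fibroblast markers 8 fell, and their summed level went from 279.9 to 309.8 CPM in OF1 to 68.5 to 182 CPM in the combination. The count was 4 without any 1 of the OF1 libraries, 3 without combination replicate 2 or 3 and 9 without combination replicate 1. Of 16 muscle progenitor markers 7 fell, with sums of 393 to 514 CPM against 96.9 to 364 CPM. Without OF1 replicate 2 or 3 or combination replicate 3 the count was 3, without combination replicate 2 it was 2 and without combination replicate 1 it was 14. The list's median went from -1.30 to 0 in the covariate fit, but these genes themselves define the progenitor score used there. The progenitor markers MEF2C and ITGA7 fell 1.94-fold and 1.89-fold. Of 7 smooth muscle markers 3 fell (ACTA2, TAGLN and SYNPO2), with a median of -0.20, and the count was 1 without OF1 replicate 2 or 3, 2 without combination replicate 3 and 0 in edgeR without combination replicate 2. SOX10, PRAME and the other melanoma markers apart from AXL did not pass. The leukocyte marker FCGR3A was at 0 in all 12 libraries. The part of the muscle and fibroblast transcripts in the other results was not tested beyond the covariate and replicate 1 fits.

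**Figure D3:**
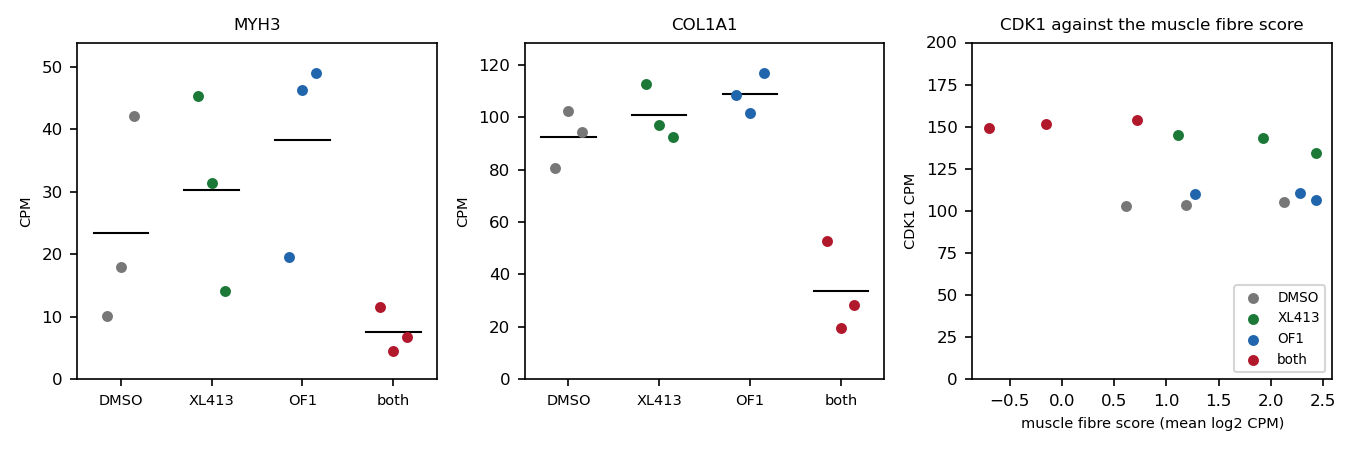
CPM of MYH3 and COL1A1 by treatment (points are replicates 1, 2 and 3, the line is the mean), and CPM of CDK1 (y axis) against the muscle fibre score (x axis) for all 12 libraries. MYH3 spans a wide range within DMSO, XL413 and OF1, COL1A1 is lowest in the 3 combination libraries, and CDK1 is higher in all 6 libraries with XL413 than in all 6 without it.

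Further genes lay outside these lists or in small marker lists. GCOM1 rose 3.88-fold from 1.19, 0.423 and 1.71 to 3.94, 4.74 and 4.36 CPM. It is annotated as a read-through of neighbouring genes, as is BIVM-ERCC5, which went from 8.42, 6.90 and 8.89 to 2.11, 0.617 and 1.56 CPM, so their counts may depend on how reads were split. OR51B4, an olfactory receptor gene, went from 3.71, 4.13 and 3.99 to 6.30, 6.08 and 5.98 CPM (1.55-fold) and kept its call without any 1 of the 6 libraries. LAPTM5, GRHL1 and TRIML2 rose 1.70-fold, 1.66-fold and 1.61-fold at low levels and each lost its call without 4 of the 6 libraries. TIE1, an endothelial receptor kinase, went from 10.7, 10.9 and 11.9 to 14.3, 14.5 and 15.7 CPM. Of the 8 endothelial markers listed, 6 were under 1 CPM in all 12 libraries. The keratin KRT8 rose 1.12-fold. KRT8 lost its call without any of the 6 libraries except combination replicate 1.

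The same contrast without OF1, XL413 against DMSO, passed 430 genes (2.8%), 193 higher (1.26%) and 237 lower (1.54%). Of these, 146 also passed with OF1 (34% of the 430 and 17.3% of the 845), 90 risen and 56 fallen. All 146 had the same direction. The counts of 430 and 845 rest on the spread shared by all 12 libraries. With only its own 6 libraries XL413 against DMSO passed 1394 genes, and the combination against OF1 passed 120. Which setting has more changed genes therefore depends on the spread used. Of the 430, 387 had the same sign with OF1 (90%), against 63% of all tested genes. Of the 845, 651 had the same sign without OF1 (77%). Among the 146 the median absolute log2 change was 0.22 with OF1 and 0.22 without it, and 75 of them moved more with OF1. Across all 15353 genes Pearson's r between both sets of log2 changes was -0.02 and Spearman's rho 0.26. Genes are not independent replicates, and this is a description. Of the G2/M members 15 rose in both settings and MKI67 fell in both, by 0.33 with OF1 and 0.42 without it on the log2 scale. All 4 risen histone genes rose in both. CDK1 had log2 changes of 0.47 and 0.44, HMMR 0.64 and 0.57, HIST1H2BK 0.79 and 0.69, and FST -0.47 and -0.34. HIST1H2AC had 1.38 and 0.89, a difference of 0.49 ± 0.15 (SE; unadjusted p = 0.0063, adjusted p = 0.24). Among the licensing genes 1, MCM3, rose in both. Of the 35 muscle fibre markers 35 had opposite signs in the 2 settings, with medians of -2.10 and 0.49.

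The test of the difference, the change with OF1 minus the change without it, passed 0 genes in edgeR (0%), with 1566 at an unadjusted p under 0.05 and a smallest adjusted p of 0.0797. DESeq2 passed 108 and limma-voom 0. Without combination replicate 1 edgeR passed 362, 75 positive and 287 negative. The genes of smallest p were NREP, ACTA2, COL1A1, SLN, BIVM-ERCC5 and LOXL1. NREP, a regeneration-related protein, was at 27.1, 29.1 and 28.9 CPM in OF1 and 22.9, 23.6 and 22.8 CPM in the combination, and at 25.2, 25.2 and 24.9 CPM in DMSO and 27.2, 27.1 and 28.4 CPM with XL413 alone. Its log2 changes were -0.30 and 0.14, a difference of -0.43 (adjusted p = 0.0797). ACTA2, smooth muscle actin, had changes of -0.52 and 0.33, COL1A1 -1.71 and 0.12, and the collagen crosslinking enzyme LOXL1 -1.26 and 0.47 (adjusted p = 0.0869 for each difference). For CDK1 the difference was 0.04 ± 0.05 (SE), for HMMR 0.07 ± 0.07 and for MKI67 0.09 ± 0.07, and none of them passed.

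**Figure D4:**
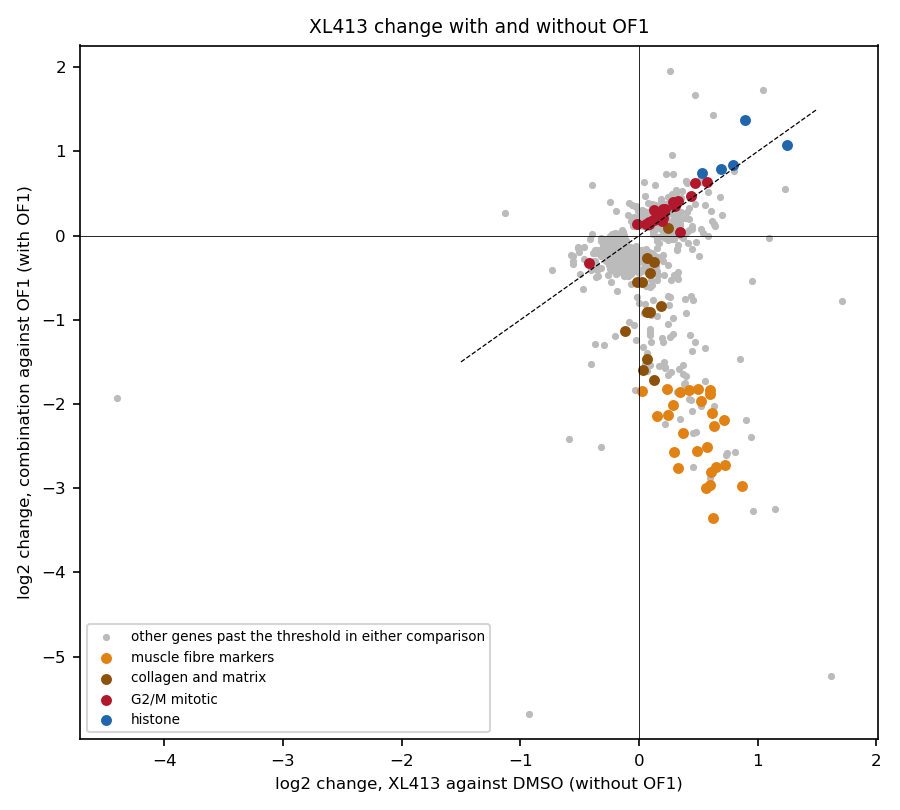
Log2 change in the combination against OF1 (y axis) and in XL413 against DMSO (x axis) for genes that passed in either; the dashed line marks equal changes. Most G2/M and histone genes lie near that line, whereas the muscle fibre markers lie below 0 on the y axis and above 0 on the x axis.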

How the data were processed

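RNA of 12 libraries, 3 for each treatment, was sequenced after poly(A) selection with a dUTP strand protocol, per the labels' protocols. The deposited values are the authors' expected counts for each gene symbol, without scaling for depth. The submitters' processing notes name Bowtie2 2.1.0, RSEM 1.2.15 and the hg38 build. For annotation and strand setting, the sources used here give nothing. Of the values 10.6% were not whole and were rounded. On 28 of 26475 entries the name reads as a date, and none of these is named. Genes passing filterByExpr (15353) were fitted with edgeR 4.0.16 (R 4.3.3): TMM, 1 mean per group over all 12 libraries, 8 residual degrees of freedom, quasi-likelihood F test, Benjamini-Hochberg adjusted p under 0.05. The SE was taken as the absolute log2 change over the root of F. DESeq2 1.42.0 and limma 3.58.1 (voom) were alternatives. Alternatives also covered scaling, filters, blocks, muscle scores and left-out libraries; length and GC offsets (mgcv 1.9.3, GENCODE v29 longest transcripts) were added after seeing the data. Positions and promoters are RefSeq, GRCh38.p14, and 15027 tested genes matched.

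The members and lists were chosen with earlier results of these data known. Genes named are the 12 risen and 12 fallen of largest change (average log2 CPM of at least 1, libraries not overlapping), those that also passed with both muscle scores as covariates, up to 4 passing members of each list in each direction, the inhibitors' targets, and the 6 of smallest p for the difference with and without OF1. Some genes the rule takes are left out, and other list members named were chosen after their values were seen. Fits were tested on simulated data (3 runs, each of 15353 genes with 200 changed, taken from genes at 1 CPM or more). For the combination against OF1, 67.1% of genes changed 1.3-fold, 82.7% at 1.5-fold and 94.7% at 2-fold were called. Among 45101 unchanged genes there were 17 calls. Counts were drawn for each gene independently, without a shift shared by many genes of a library. The runs therefore do not measure calls that such shifts would give. Replicate pairs of these groups differed by more than counting noise (chi-square per degree of freedom 2.76 to 13.96), so none is a copy.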

Additional observations from a re-analysis of the deposited data

How the results depend on the processing

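For the combination against OF1 (845 genes), upper-quartile (899) or RLE (844) factors, no filter (1019), a CPM minimum (857), DESeq2 (1034) and limma-voom (843) stayed within 1.5 times. It moved to 11 with both muscle scores, 9 with the fibre score, 9 against a 1.2-fold change, 53 with combination replicate 1 alone, 120 with the 6 libraries only, 1678 with length and GC offsets, and 212 to 2227 without 1 of its 6 libraries. XL413 against DMSO (430) moved to 188 with the fibre score, 5 against a 1.2-fold change, 1394 with its 6 libraries only, 1139 with the offsets, and 86 to 287 without 1 of its 6 libraries. The difference between both settings (0 genes in edgeR) became 132 without a filter, 108 with DESeq2, 50 with the offsets, 1 with combination replicate 1 alone, and 0 to 362 without 1 library.

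The replicate number as a block gave 850 genes for the combination against OF1, 361 for XL413 against DMSO and 2 for the difference. The labels do not say that numbers mark pairs. Same-numbered deviations of the combination and OF1 correlated at 0.017, -0.189 and 0.15, and differently numbered ones at -0.173 to 0.166. With 3 libraries a group these values cannot decide whether the numbers mark pairs.

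Of 110 named genes, the signs of these reversed: with both muscle scores MYBPH (0.19), ACTA1 (0.20), TNNT3 (0.25), MYH3 (0.03) and SYNPO2 (0.06), and with the fibre score MYBPH (0.18), ACTA1 (0.26), TNNT3 (0.07), MYH3 (0.13) and TNNC1 (0.13). All of these except SYNPO2 are among the genes that define the fibre score. BRD1, which did not pass and ranged from -0.02 to 0.08 without 1 library, reversed without OF1 replicate 2 (-0.01) or 3 (-0.02) and without combination replicate 1 (-0.01) or 3 (-0.01), and BRPF3 without OF1 replicate 1 (-0.01) and with combination replicate 1 alone (-0.01). Of the 105 named genes that passed, 94 lost their calls with both muscle scores, 87 with replicate 1 alone and 62 with the 6 libraries only. The muscle scores differ between the groups compared and the covariate fit leaves 6 residual degrees of freedom; the cause of these losses was not tested. By other tools, fallen muscle fibre markers numbered 16 with limma-voom against 26 in edgeR, invasive state genes 3 with DESeq2 and 4 with limma-voom against 1, MAPK genes 5 and 4 against 2, and risen oxidative phosphorylation genes 7 with DESeq2 against 2. Library totals of 30499559 to 36062138 limit mainly the genes near 1 CPM.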
